A study of Homo sapiens with 18 samples.

Results

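The 6 genes described here encode some of the kinases that phosphorylate SR proteins, the splicing factors named for their stretches of alternating serine and arginine. They are the CDC-like kinases *CLK1*, *CLK2*, *CLK3* and *CLK4* and the SR protein kinases *SRPK1* and *SRPK2*. They were chosen by name from 57500 genes in the count tables, by a rule that uses no measured value but with earlier results of these data known, and all 6 passed the filter on low counts in every comparison. RNA-seq libraries came from 2 pediatric sarcoma lines, ES8 (Ewing sarcoma) and Rh30 (labelled rhabdomyosarcoma), all transduced with the dCas9-KRAB repressor and selected in puromycin for 72 hours after the sgRNA. In each line 3 libraries held a non-targeting guide (sgCTL, genotype parental), 3 held a guide that silences *DNAJC17* (sgDNAJC17, genotype parental), and 3 held sgDNAJC17 in cells that stably expressed 3xFLAG-DNAJC17-dRRM from a cDNA (ΔRRM), a *DNAJC17* allele without its RNA recognition motif. *DNAJC17* encodes a J-domain partner of the chaperone HSP70. No ΔRRM library with sgCTL was analysed here, so the allele and the guide cannot be told apart against parental sgCTL, and neither can the derivation of the stable population. Cells were plated in triplicate, so p-values measure the spread between these cultures, which may be technical.

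SR proteins bind exons and help the spliceosome to choose splice sites, and their phosphorylation decides where they are and whether they are active. In the textbook account SRPKs act mainly in the cytoplasm, where they dock on SR proteins and phosphorylate them so that transportin carries them into the nucleus. CLKs act in the nucleus, where they phosphorylate further serines and release SR proteins from nuclear speckles to the sites of transcription. CLK transcripts themselves carry introns that stay in polyadenylated nuclear RNA until a signal leads to their removal, a form of storage known as intron detention. Gene-level counts pool such transcripts with the spliced mRNA, so the values below do not part the spliced from the unspliced form.

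The gene models of the kinases differed in shape (GRCh38). *CLK1* (ENSG00000013441) lies on chromosome 2 from 200853009 to 200864744 on the minus strand, and 44.1% of that span is annotated as exon in at least 1 transcript. *CLK4* (ENSG00000113240; chromosome 5, 178602664 to 178630615, minus strand) is its closest relative in sequence and had an exonic share of 28.3%. *CLK2* (ENSG00000176444) lies on chromosome 1 from 155262868 to 155278491 on the minus strand with a share of 23.5%. *CLK3* (ENSG00000179335) lies on chromosome 15 from 74598500 to 74645414 on the plus strand with a share of 43.6%. The median share over 18332 multi-exon coding genes was 14.2%, so all 4 CLK genes were above it. *SRPK1* (ENSG00000096063; chromosome 6, 35832966 to 35921342, minus strand) and *SRPK2* (ENSG00000135250; chromosome 7, 105110704 to 105399308, minus strand) had 7.6% and 2.2% of their spans in exons. GENCODE annotates a retained intron in 8 of 14 *CLK1* transcripts, 8 of 27 *CLK3* transcripts and 7 of 13 *CLK4* transcripts, but in 0 of 7 of *CLK2*, and in 4 of 13 of *SRPK1* and 2 of 15 of *SRPK2*. Whether those introns lie in the deposited exon models was not checked, and where they do, their reads count towards the gene. The merged *CLK3* exons add up to 20443 bases around 1857 coding bases, and its model starts well before the RefSeq gene, which begins at base 74608372.

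Counts summed to between 35342393 and 48245989 per library, and the kinases held between 92 and 6152 counts in a library. Levels are given as CPM, counts per 1000000 counts of the genes kept, after TMM scaling over all 18 libraries. *DNAJC17* followed the guide in every parental library. It stood at 11.2 to 12.4 CPM in ES8 sgCTL and 1.56 to 1.96 in ES8 sgDNAJC17, and at 10.8 to 11.9 and 2.20 to 2.72 in the matching Rh30 groups. The fall was deeper in ES8 than in Rh30, at -2.84 ± 0.12 against -2.19 ± 0.11 on the log2 scale, a difference of 0.68 ± 0.18 (adjusted p = 0.0199, edgeR). In the ΔRRM libraries reads of the transgene were counted with the gene, which stood at 283 to 312 CPM in ES8 and 336 to 368 in Rh30. Of the 6 Ewing sarcoma markers checked, all were lower in Rh30 sgCTL than in ES8 sgCTL, and 5 were under 10 counts in every Rh30 sgCTL library. All 6 rhabdomyosarcoma markers were higher in Rh30 sgCTL, and *MYOG* and *CHRNA1* were at 0 counts in ES8 sgCTL. ES8 sgDNAJC17 replicate A lay apart from B and C, by a chi-square per gene of 27.5 and 31.5 beside 2.62 between B and C. ES8 ΔRRM replicate B differed from A and C by 31.8 and 20.5.

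In both lines *SRPK1* was the most abundant of the 6 kinase transcripts per kilobase of exon and *CLK4* the least. In ES8 sgCTL *SRPK1* stood at 17.5 ± 0.821 CPM per kilobase of annotated exon (SD, n = 3). *CLK2* followed at 11.1 ± 0.226 and *SRPK2* at 10.9 ± 0.365, and those neighbours did not differ beyond their spread. The other CLK genes lay much lower on the same per-kilobase scale, with *CLK3* at 2.09 ± 0.125, *CLK1* at 2.01 ± 0.281 and *CLK4* at 1.35 ± 0.0555, and *CLK3* and *CLK1* were within their spread. In Rh30 sgCTL *SRPK1* stood at 14.5 ± 0.233 CPM per kilobase of exon, *SRPK2* at 9.03 ± 0.194 and *CLK2* at 7.46 ± 0.422. *CLK1* came next at 2.27 ± 0.229, then *CLK3* at 1.53 ± 0.0454 and *CLK4* at 0.412 ± 0.0588. The level of *SRPK1* was thus 13.0 times that of *CLK4* in ES8 sgCTL and 35.2 times in Rh30 sgCTL. The scale per kilobase of coding exon divides all counts of a gene, also those outside coding exons, by its coding length. It does not measure coverage of the coding exons alone. For *CLK3* it sets counts from 20443 exonic bases against 1857 coding bases. On that scale the highest level was 7.30 times the lowest in ES8 sgCTL and 18.7 times in Rh30 sgCTL. Per kilobase of coding exon *SRPK1* remained first in both lines, while *CLK3* stood far closer to the upper group, at 23.1 ± 1.38 against 27.2 ± 0.553 for *CLK2* in ES8 sgCTL. *CLK1* then became the least abundant member in ES8 sgCTL, at 6.51 ± 0.911 against 6.90 ± 0.284 for *CLK4*, a gap within their spread.

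**Figure D1:**
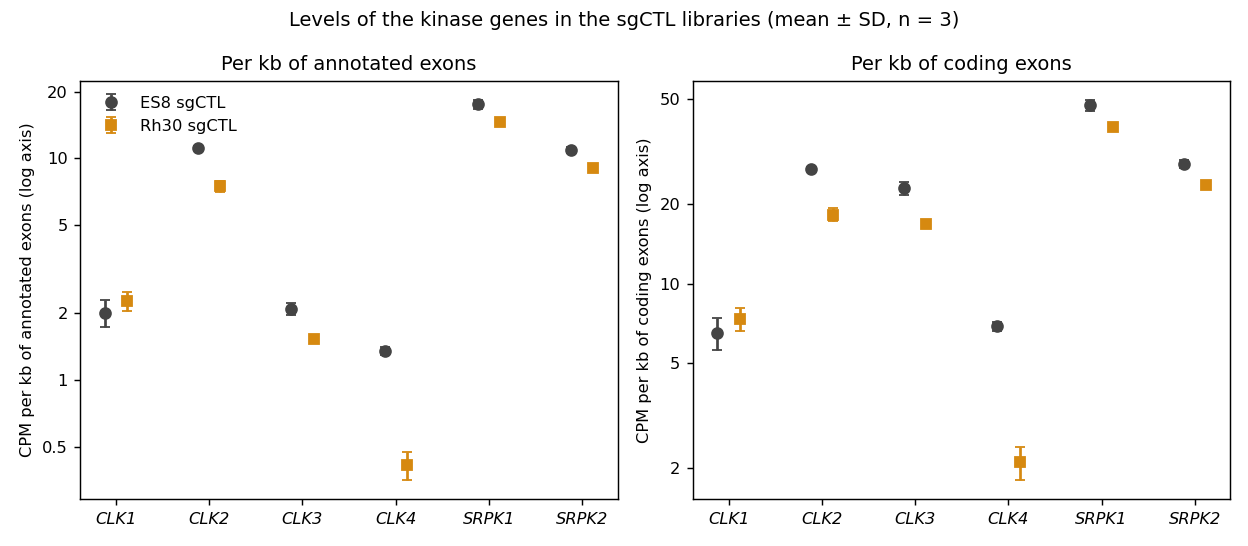
Mean level ± SD of each kinase gene in the 3 sgCTL libraries of ES8 (circles) and Rh30 (squares), in CPM per kilobase of annotated exon on the left and per kilobase of coding exon on the right, both on log axes. The scale on the right divides all counts of a gene, also those outside coding exons, by its coding length. *SRPK1* is highest on both scales, and *CLK3* stands at 2.09 in ES8 on the left and 23.1 on the right.

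Between the control cells, Rh30 sgCTL against ES8 sgCTL, 5 of the 6 kinases were called lower in Rh30, where 87.5% of all genes tested were called and 45.5% were called lower. A call here means an adjusted p under 0.05 in edgeR's quasi-likelihood test, corrected over all genes tested. *CLK4* showed the largest difference of the 6, a log2 fold change of -1.74 ± 0.11 (SE; adjusted p = 9.57e-19). *CLK2* was lower at a log2 fold change of -0.60 ± 0.06 (adjusted p = 2.14e-12) and *CLK3* at -0.48 ± 0.06 (adjusted p = 8.18e-10). *SRPK1* and *SRPK2* both differed by -0.30 ± 0.05 on the log2 scale. The libraries did not overlap for those 5, as for 87.7% of all genes. *CLK1* was not called, at 0.15 ± 0.09 (adjusted p = 0.114), but was called higher without ES8 sgCTL replicate C or Rh30 sgCTL replicate A, at 0.27 and 0.21. Scaling by library totals in place of TMM moved the median of all genes in this comparison from -0.07 to -0.28, and *CLK1* then stood at -0.06.

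*CLK1*, a nuclear kinase and the most studied of the CLKs, stood at 9.50, 9.58 and 12.1 CPM in ES8 sgCTL and at 10.9, 14.5 and 13.5 CPM in ES8 sgDNAJC17. In Rh30 it stood at 10.9, 11.3 and 13.1 CPM with sgCTL and at 14.6, 15.1 and 19.9 CPM with sgDNAJC17. The ES8 groups overlapped, and every Rh30 knockdown library was above every Rh30 control library. *CLK1* rose in Rh30 by 0.50 ± 0.12 on the log2 scale (adjusted p = 0.00594), while its value in ES8 was 0.30 ± 0.13 (adjusted p = 0.116). The difference between those 2 changes was 0.24 ± 0.18 and was not called (adjusted p = 0.464). Over the alternative settings the *CLK1* change ran from 0.32 to 0.51 in Rh30 and from 0.25 to 0.38 in ES8. With the ΔRRM allele *CLK1* stood at 11.3, 11.5 and 10.5 CPM in ES8 and 14.3, 16.7 and 17.8 CPM in Rh30. The ES8 ΔRRM libraries lay inside the range of their sgCTL libraries, and the Rh30 ones lay above theirs, at the knockdown level. In Rh30 ΔRRM against sgCTL *CLK1* was higher by 0.50 ± 0.09 (log2; adjusted p = 2.76e-06), but stood at 0.05 once trends with GC content and length were removed (adjusted p = 0.639). Against the parental knockdown it differed by -0.02 ± 0.10 (adjusted p = 0.912). Over the 6 groups the order ran from Rh30 sgDNAJC17 down to ES8 sgCTL, and each group overlapped the next.

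*CLK4*, the closest paralog of *CLK1*, gave no call within either line in the tests as designed. It stood at 11.2, 10.4 and 10.5 CPM in ES8 sgCTL, 10.5, 13.0 and 12.7 in ES8 sgDNAJC17, and 10.1, 10.5 and 10.5 in ES8 ΔRRM. In Rh30 the levels were 2.88, 3.13 and 3.78 CPM with sgCTL, 2.37, 3.05 and 4.47 with sgDNAJC17, and 2.52, 3.57 and 3.24 with ΔRRM. No ES8 library overlapped any Rh30 library, whereas the 3 Rh30 groups ran into each other. The knockdown difference of *CLK4* on the log2 scale was 0.15 ± 0.10 for ES8 (adjusted p = 0.299) and 0.02 ± 0.20 for Rh30 (adjusted p = 0.956). With trends for GC and length removed the ES8 value was called, at 0.29 (adjusted p = 0.00896). *CLK4* held 92 to 171 counts per Rh30 library, beside 397 to 561 in ES8.

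*CLK2*, the CLK without a retained-intron transcript in GENCODE, fell in both lines after knockdown. It stood at 39.8, 41.3 and 41.2 CPM in ES8 sgCTL and 35.1, 36.2 and 34.1 in ES8 sgDNAJC17. In Rh30 it stood at 27.3, 29.0 and 25.9 CPM with sgCTL and 21.1, 19.7 and 20.3 with sgDNAJC17. All knockdown libraries were below all control libraries of their own line. On the log2 scale ES8 changed by -0.24 ± 0.07 (adjusted p = 0.0228) and Rh30 by -0.41 ± 0.07 (adjusted p = 0.00103), and the difference between the lines was not called (adjusted p = 0.406). The ES8 call was lost without sgCTL replicate A, B or C or sgDNAJC17 replicate C, with adjusted p up to 0.102, while the Rh30 call stood without any single library. With ΔRRM the gene parted the lines. It stood at 40.9, 43.8 and 43.4 CPM in ES8, overlapping sgCTL, and at 17.7, 16.8 and 17.5 CPM in Rh30, below even the knockdown libraries. In ES8 ΔRRM *CLK2* was higher than in the parental knockdown by 0.31 ± 0.09 (adjusted p = 0.0437), a call that stood only without sgDNAJC17 replicate A when single libraries were left out. In Rh30 ΔRRM it was lower than in the knockdown, at -0.22 ± 0.09 (adjusted p = 0.033), a call lost without any 1 of 5 libraries (all but sgDNAJC17 replicate C) with adjusted p up to 0.1, and lower than in sgCTL, at -0.62 ± 0.08 (adjusted p = 1.79e-10). The change against sgCTL differed between the lines by -0.68 ± 0.10 (adjusted p = 6.25e-06), and that call held without any single library. Ordered by level, the ES8 ΔRRM and ES8 sgCTL groups overlapped, and ES8 sgDNAJC17, Rh30 sgCTL, Rh30 sgDNAJC17 and Rh30 ΔRRM followed with no overlap between neighbours.

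*CLK3*, another nuclear CLK, rose after knockdown in ES8. It stood at 40.9, 45.7 and 41.9 CPM with sgCTL and 58.6, 54.8 and 53.2 with sgDNAJC17, with no overlap, and the change on the log2 scale was 0.35 ± 0.07 (adjusted p = 0.00656). In Rh30 it stood at 32.1, 31.5 and 30.3 CPM with sgCTL and 37.97, 34.1 and 33.8 with sgDNAJC17. Those groups did not overlap either, and the smaller change of 0.19 ± 0.07 just passed the test (adjusted p = 0.0485). It did not pass in DESeq2 (adjusted p = 0.0571), with library totals (0.13, adjusted p = 0.205), with no filter on low counts (adjusted p = 0.138), in 1 fit over all libraries (adjusted p = 0.111) or without sgCTL replicate A, B or C or sgDNAJC17 replicate A or B, with adjusted p up to 0.172. With the length trend removed the value was 0.36 (adjusted p = 0.000698). The difference between the lines was -0.14 ± 0.11 and not called (adjusted p = 0.459). With ΔRRM *CLK3* stood at 44.8, 48.1 and 48.2 CPM in ES8 and 28.4, 28.6 and 30.6 in Rh30, so the ΔRRM libraries of each line lay below all its knockdown libraries and overlapped its sgCTL libraries. In Rh30 ΔRRM against sgCTL *CLK3* was at -0.07 ± 0.07 (adjusted p = 0.424), but called lower at -0.30 by library totals and higher at 0.32 with the length trend removed. Against the knockdown the ΔRRM change was -0.22 ± 0.09 in ES8 (adjusted p = 0.131) and -0.27 ± 0.09 in Rh30, where *CLK3* was called lower (adjusted p = 0.0059). That Rh30 value shrank to -0.05 when the trend with exonic length was removed (adjusted p = 0.61), and *CLK3* has the longest exon model of the 6. *CLK3* and *EDC3*, a decapping enhancer on the opposite strand, share 701 exonic bases, 3.43% of the *CLK3* exons. *EDC3* rose by 0.24 ± 0.06 in the ES8 knockdown (adjusted p = 0.0154) and stood at -0.14 ± 0.06 in Rh30 (adjusted p = 0.088). Strand was not recorded in the counts as far as the sources used here say, so reads in the shared bases cannot be told apart.

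*SRPK1*, the SR protein kinase best known for phosphorylating SRSF1, fell in ES8 and was not called in Rh30, and its response to knockdown was the only one of the 6 called different between the lines. It stood at 123, 112 and 116 CPM in ES8 sgCTL and 70.5, 87.8 and 88.0 CPM in ES8 sgDNAJC17. In Rh30 it stood at 96.6, 98.7 and 95.7 CPM with sgCTL and 95.1, 89.4 and 92.0 CPM with sgDNAJC17. The ES8 groups were far apart relative to their spread, and the Rh30 groups nearly touched. The change was -0.53 ± 0.09 on the log2 scale for ES8 (adjusted p = 0.0021) and -0.06 ± 0.06 for Rh30 (adjusted p = 0.479), and the difference between them was 0.50 ± 0.10 (adjusted p = 0.00473). *DNAJC17* itself had fallen less in Rh30, as given above, and the part of that gap in the *SRPK1* difference was not tested. Without ES8 sgDNAJC17 replicate A, the lowest library, the ES8 change was -0.44 (adjusted p = 5.69e-14) and the difference between lines 0.42 (adjusted p = 0.001). With ΔRRM *SRPK1* stood at 119, 101 and 108 CPM in ES8 and 104, 110 and 95.2 in Rh30. All ES8 ΔRRM libraries were above all ES8 knockdown libraries and overlapped sgCTL. Against the knockdown *SRPK1* was higher in ES8 ΔRRM by 0.44 ± 0.11 (adjusted p = 0.0175), a call that was lost without ΔRRM replicate A or C (adjusted p = 0.0564 and 0.064). Against sgCTL the ES8 ΔRRM value was -0.10 ± 0.07 (adjusted p = 0.53). In Rh30 ΔRRM it was 0.12 ± 0.06 against sgCTL (adjusted p = 0.0744) and -0.11 when scaled by library totals. It was called higher at 0.14 in DESeq2, at 0.14 with DESeq2 size factors or with GC and length trends removed, and at 0.25 with the length trend removed. It was also called at 0.17 without ΔRRM replicate C (adjusted p = 0.027). Against the Rh30 knockdown it was 0.17 ± 0.08 (adjusted p = 0.0551), and called without sgDNAJC17 replicate A or ΔRRM replicate C at 0.18 and 0.21. Ordered by level, the top 4 groups each overlapped the next, and Rh30 sgDNAJC17 and then ES8 sgDNAJC17 lay below them. Its exons share 265 bases with *LHFPL5*, a hair cell gene tested in Rh30 only, at -0.36 ± 0.42 after knockdown (adjusted p = 0.546) and called higher in ΔRRM against sgCTL at 1.11 ± 0.39 (adjusted p = 0.0099).

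*SRPK2*, its paralog, which also phosphorylates SR proteins, was not called after knockdown in either line. It stood at 69.5, 66.5 and 71.1 CPM in ES8 sgCTL and 59.0, 76.4 and 74.0 CPM in ES8 sgDNAJC17, and at 57.5, 58.4 and 55.9 CPM in Rh30 sgCTL and 60.4, 59.6 and 61.8 CPM in Rh30 sgDNAJC17. In ES8 the knockdown libraries spanned the controls, and in Rh30 they all lay above them by a small margin. Neither change was called, at -0.01 ± 0.09 on the log2 scale for ES8 (adjusted p = 0.97) and 0.10 ± 0.06 for Rh30 (adjusted p = 0.235). The Rh30 value was called at 0.13 with the length trend removed and replicate letters as a block (adjusted p = 0.0219), and stood at 0.0039 with the GC trend removed as well. With ΔRRM it stood at 70.3, 58.8 and 64.0 CPM in ES8 and 64.0, 68.9 and 60.2 CPM in Rh30. The Rh30 ΔRRM libraries were above all 3 Rh30 sgCTL libraries, and *SRPK2* was called higher there by 0.21 ± 0.06 (adjusted p = 0.0039). Under scaling by library totals that value became -0.03 and with the GC and length trends removed -0.0022, neither of them called. Over the 6 groups each neighbour overlapped the next except Rh30 sgCTL, which lay lowest. *KMT2E*, the neighbour on the opposite strand, shares 98 exonic bases with *SRPK2*. *KMT2E* rose in the ES8 knockdown by 0.34 ± 0.08 (adjusted p = 0.0134) and fell in Rh30, at -0.31 ± 0.07 (adjusted p = 0.00629).

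**Figure D2:**
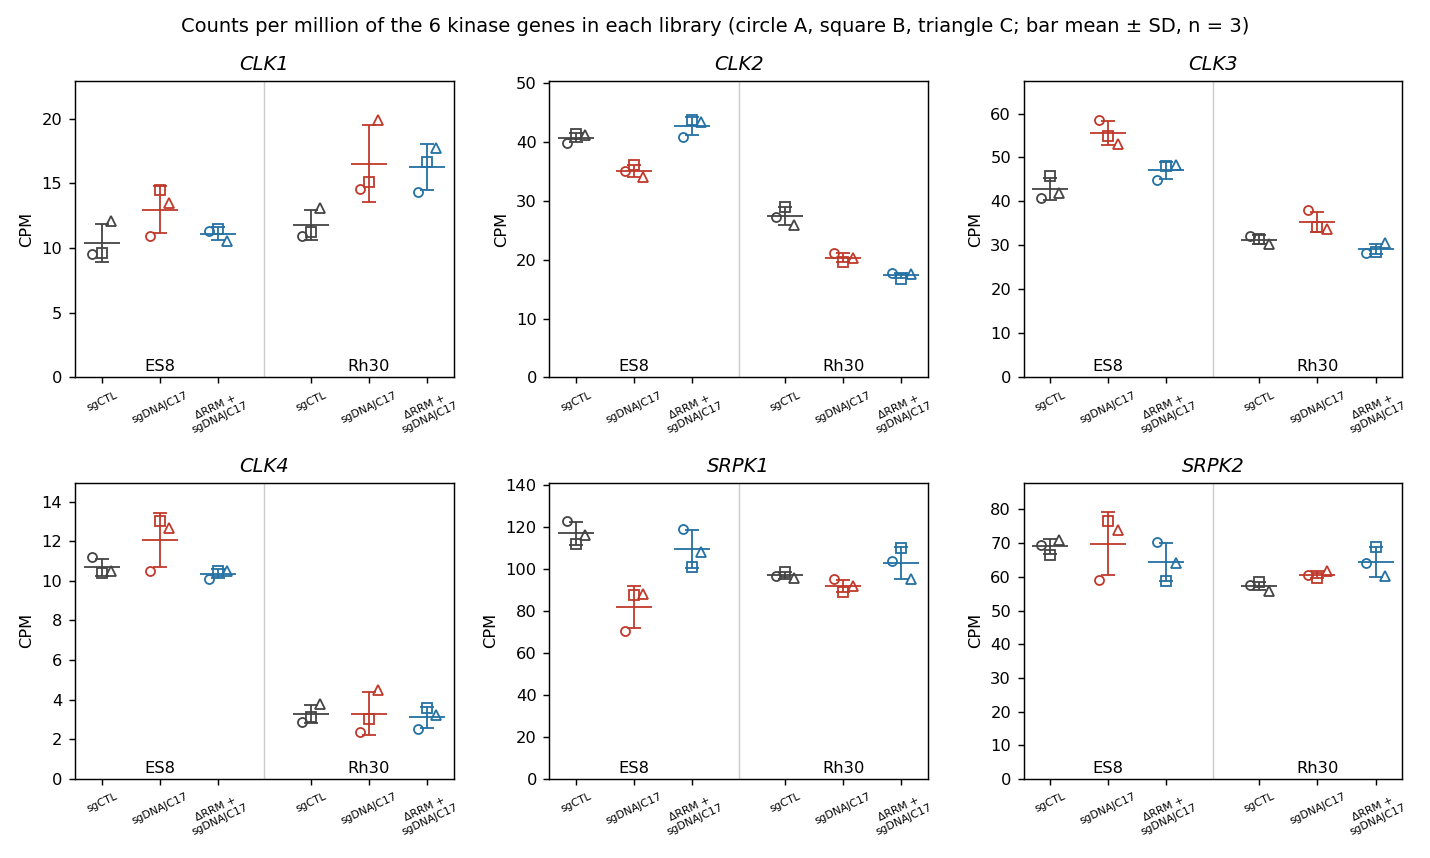
CPM of each kinase gene in every library, one panel per gene with the y axis from 0, ES8 on the left and Rh30 on the right of each panel. Symbols are replicates A, B and C, and bars are the mean ± SD of 3 libraries. *SRPK1* falls from 112 to 123 CPM to 70.5 to 88.0 in the ES8 knockdown, and *CLK2* is lowest in Rh30 ΔRRM at 16.8 to 17.7.

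Counted over the family, knockdown gave calls for 3 of the genes in each line without a common direction. In ES8, 3 of 6 kinases were called, *CLK3* higher and *CLK2* and *SRPK1* lower, where 27.4% of all genes tested were called. In Rh30, 3 of 6 were called, *CLK1* and *CLK3* higher and *CLK2* lower, against 32.3% of all genes. The median log2 fold change of the 6 was 0.07 in ES8 and 0.06 in Rh30, beside -0.02 and 0.0045 over all genes tested. Both lines called *CLK2* lower and *CLK3* higher, 2 of 6 genes. Over the 13841 genes that entered both tests, 12.4% had calls of 1 direction in ES8 and Rh30 alike. Without ES8 sgDNAJC17 replicate A, 5 kinases were called in ES8, with *CLK1* at 0.40 and *CLK4* at 0.24 now higher. Calls over all genes were not counted without that library, and 27.4% is the share of the full fit only. No kinase was called with a change of at least 2-fold in any comparison within a line. Such calls covered 1.95% of genes after knockdown in ES8 and 1.55% after knockdown in Rh30, 0.0349% and 9.97% in ΔRRM against sgCTL (ES8 and then Rh30), 1.97% and 7.79% in ΔRRM against the knockdown, and 1.26% and 6.66% in the interactions with knockdown and ΔRRM. Between the lines *CLK4* alone of the 6 differed by that much, where 50.9% of genes did. Libraries of the knockdown and control groups did not overlap for 3 kinases in ES8 and 5 in Rh30, where 44.8% and 44.3% of all genes did not. The interaction of line with knockdown called 1 of 6, *SRPK1*, where 9.78% of genes were called.

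**Figure D3:**
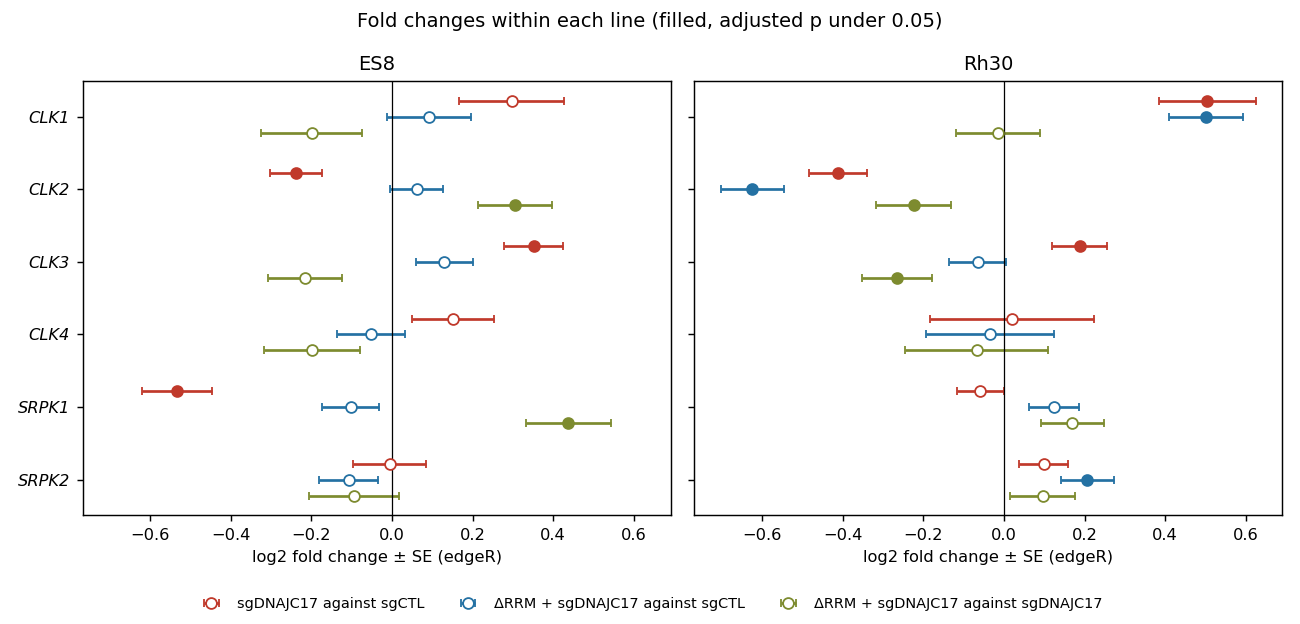
Log2 fold change ± SE of each kinase gene in 3 comparisons per line, ES8 on the left and Rh30 on the right. Filled symbols have an adjusted p under 0.05 in edgeR. In ES8 the ΔRRM cells against sgCTL hold no filled symbol, and in Rh30 *CLK1* is at 0.50 and *CLK2* at -0.62 in the same comparison.

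The ΔRRM comparisons share libraries with the knockdown comparisons, so their values are set side by side and not counted as separate support. In ES8 ΔRRM against sgCTL, 0 of 6 kinases were called by edgeR and by DESeq2, and 0 at an unadjusted p under 0.05. The background was 0.174% of genes called, with 2308 of 17199 genes at an unadjusted p under 0.05. The 6 fold changes lay between -0.11 and 0.13 on the log2 scale, and the groups overlapped for all 6 kinases, while 20.8% of all genes had no overlap. Against the parental knockdown ES8 ΔRRM had 2 of 6 called, *CLK2* and *SRPK1*, both higher, where 14.7% of genes were called and 7.35% were higher. Libraries did not overlap for 4 kinases in that comparison and for 34.8% of genes. Among these kinases *CLK4* was nearly tied, with its highest ΔRRM and its lowest knockdown library both at 10.49 CPM. Without ES8 ΔRRM replicate A or C the count of kinases called was 0. Without replicate B, or without sgDNAJC17 replicate B or C, it was 1. In Rh30 ΔRRM against sgCTL 3 of 6 were called, *CLK1* and *SRPK2* higher and *CLK2* lower, against a background of 68.8%, and 3 had no overlap, against 71.5% of genes. Against the Rh30 knockdown 2 of 6 were called, *CLK2* and *CLK3*, both lower, against 60.0% of genes called and 30.5% lower. Without Rh30 sgDNAJC17 replicate B or ΔRRM replicate A or B the count was 1. Libraries did not overlap for 3 kinases there and for 64.2% of genes. The interaction of line with ΔRRM called 3 of 6, where 41.4% of genes were called. Beside *CLK2* at -0.68, these were *CLK1* at 0.41 ± 0.15 (adjusted p = 0.032) and *SRPK2* at 0.32 ± 0.10 (adjusted p = 0.0111). The *CLK1* call was lost without any 1 of 6 libraries, ES8 sgCTL C, ES8 ΔRRM C, Rh30 sgCTL A or B, and Rh30 ΔRRM B or C, with values of 0.29 to 0.40 and adjusted p up to 0.149. *SRPK1*, at 0.23 ± 0.09 (adjusted p = 0.0585), was called at 0.28 without ES8 ΔRRM replicate A or Rh30 ΔRRM replicate C. Scaling by library totals moved the median of all genes from -0.01 to -0.25 in Rh30 ΔRRM against sgCTL and from -0.01 to -0.17 against the knockdown.

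In the Rh30 libraries with sgDNAJC17, with and without ΔRRM, the summed markers of epithelial cells were higher than in Rh30 sgCTL. The cause was not tested. The summed level of the 9 markers was 1.13 to 1.65 CPM in Rh30 sgCTL, 12.5 to 18.3 in Rh30 sgDNAJC17 and 13.6 to 15.8 in Rh30 ΔRRM. *CLDN7* and *RAB25* were at 0 in every Rh30 sgCTL library, and neither was tested in the Rh30 knockdown. Of the 9 markers, 7 were under 10 counts in every Rh30 sgCTL library. The same held for 4 in Rh30 sgDNAJC17 and 5 in Rh30 ΔRRM. The 4 markers tested were called higher in the knockdown, where 16.1% of all genes were called higher. Some of those 4 were among the markers under 10 counts in Rh30 sgCTL. They passed the filter through the knockdown libraries, so their count cannot be weighed against that share. Of the rhabdomyosarcoma markers, 3 of 6 were lower in the Rh30 knockdown and 6 of 6 in Rh30 ΔRRM against sgCTL. Over all genes 32.3% and 68.8% were called there, both directions together. Fewer cells of a type and less RNA per cell cannot be told apart in bulk samples, and the part of these shifts in the kinase values was not tested. The epithelial sum in ES8 was 34.2 to 36.2 CPM with sgCTL, 34.5 to 40.0 with sgDNAJC17 and 40.4 to 44.4 with ΔRRM. The fibroblast sum in ES8 was 441 to 459 CPM with sgCTL, 339 to 406 with sgDNAJC17 and 367.3 to 391.7 with ΔRRM. In that knockdown 4 of 4 tested markers were called lower, where 27.4% of all genes were called in either direction. In Rh30 the fibroblast sum was 39.3 to 48.3 CPM with sgCTL, 33.3 to 41.5 with sgDNAJC17 and 21.0 to 22.1 with ΔRRM. Against sgCTL 3 of 4 markers were called lower and 1 higher in Rh30 ΔRRM, where 68.8% of all genes were called. The 3 blood markers summed to 0.473 to 0.718 CPM in ES8 sgCTL and 1.09 to 1.51 in ES8 sgDNAJC17, and to less than 1 CPM in every other group. *CD14*, the 1 blood marker tested in ES8, was called higher in that knockdown at 1.26 ± 0.25 (adjusted p = 0.00571) and lower in ES8 ΔRRM against it at -1.54 ± 0.27 (adjusted p = 0.00433), while *PTPRC* was at 0 in the knockdown libraries of both lines.

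Among genes of the kinases' substrates, every call after knockdown was upward in both lines. Of 14 SR protein genes tested in ES8, 5 were higher and 0 lower, where 13.6% of all genes were higher. In Rh30 11 of 13 were higher and 0 lower, where 16.1% of all genes were higher. Their median log2 fold changes were 0.17 for ES8 and 0.26 for Rh30, beside -0.02 and 0.0045 over all genes. Over all genes, knockdown fold changes had a Spearman's rank correlation with GC content of 0.11 in ES8 and -0.35 in Rh30. With exonic length it was -0.21 and -0.23. Gene lists, SR proteins included, were not tested with those trends removed. The 5 called higher in both lines were *TRA2A*, *SRSF3*, *SRSF1*, *SRSF7* and *SRSF4*. *TRA2A*, a splicing activator that binds exonic enhancers, rose by 0.54 ± 0.08 in ES8 (adjusted p = 0.00105) and 0.42 ± 0.07 in Rh30 (adjusted p = 0.00107). *SRSF3*, the smallest SR protein, rose by 0.38 ± 0.10 (adjusted p = 0.0213) and 0.45 ± 0.07 (adjusted p = 0.000632) in that order of lines. *SRSF1*, a founding member of the family and the best studied SRPK1 substrate, had a mean level of 364 CPM in ES8 sgCTL, 459 with sgDNAJC17 and 362 with ΔRRM, and of 325, 419 and 308 CPM in the same groups of Rh30. It rose by 0.31 ± 0.05 in ES8 (adjusted p = 0.00304) and 0.38 ± 0.06 in Rh30 (adjusted p = 0.000312). *SRSF7* and *SRSF4* rose by 0.20 and 0.18 in ES8 and by 0.31 and 0.17 in Rh30. In ES8 ΔRRM against sgCTL edgeR called 0 of 14 SR protein genes, in a comparison where 0.174% of all genes were called. In Rh30 ΔRRM against sgCTL 9 of 14 were higher and 2 lower, where 68.8% of all genes were called. The 9 include *SRSF12*, at 1.48 ± 0.44, which was not tested in the Rh30 knockdown. It passed the filter only through the ΔRRM libraries, where it was high, so its call adds nothing to the count. *SRSF3* stood at a mean of 630.6 CPM in Rh30 ΔRRM against 482 in the knockdown and 358 in sgCTL. Scaling by library totals shifts all values of that comparison down, as given above.

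Genes of SR-related proteins, which also carry serine and arginine repeats, showed 5 higher and 0 lower of 12 in ES8 and 3 higher and 0 lower of 12 in Rh30, where 27.4% and 32.3% of all genes were called. *RBM39*, a U2AF-like splicing factor, rose by 0.31 ± 0.10 in ES8 (adjusted p = 0.0428) and 0.76 ± 0.06 in Rh30 (adjusted p = 3.48e-06). *SRRM1*, a splicing coactivator, rose by 0.35 ± 0.11 (adjusted p = 0.0371) and 0.22 ± 0.07 (adjusted p = 0.0247). This list had in Rh30 ΔRRM against sgCTL 3 higher and 7 lower of 12, where 68.8% of all genes were called. Genes of catalytic and regulatory phosphatase subunits were listed with the SR protein importer gene *TNPO3*. In each line 4 of 8 were higher and 0 lower, where 13.6% of all genes were higher in ES8 and 16.1% in Rh30. The catalytic subunits of protein phosphatase 2A were common to both lines. The other calls were of regulatory subunits in ES8 and of other catalytic subunits in Rh30. *PPP2CA* rose by 0.27 ± 0.06 in ES8 (adjusted p = 0.0067) and 0.24 ± 0.06 in Rh30 (adjusted p = 0.00808), and *PPP2CB* rose by 0.35 ± 0.05 (adjusted p = 0.00169) and 0.19 ± 0.06 (adjusted p = 0.021).

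Of the other kinases of splicing factors, 2 of 12 were higher and 1 lower in ES8, and 2 were higher and 2 lower in Rh30, about the shares called over all genes of 27.4% and 32.3%. *CDK11B*, a cyclin-dependent kinase that acts on the splicing machinery, was the 1 called the same way in both lines, at -0.28 ± 0.06 in ES8 (adjusted p = 0.00726) and -0.37 ± 0.09 in Rh30 (adjusted p = 0.00467). It has a near-identical neighbour, *CDK11A*, with which it can share reads, so its value is uncertain. Other genes with regulated retained introns gave no call shared by the lines. In ES8 *NXF1*, an mRNA export receptor, rose and *OGT* and *MAT2A* fell, at 0.33 ± 0.05, -0.36 ± 0.06 and -0.69 ± 0.05. In Rh30 *MDM4*, an inhibitor of p53, was the 1 of 4 called, at 0.34 ± 0.09 (adjusted p = 0.00854).

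**Figure D4:**
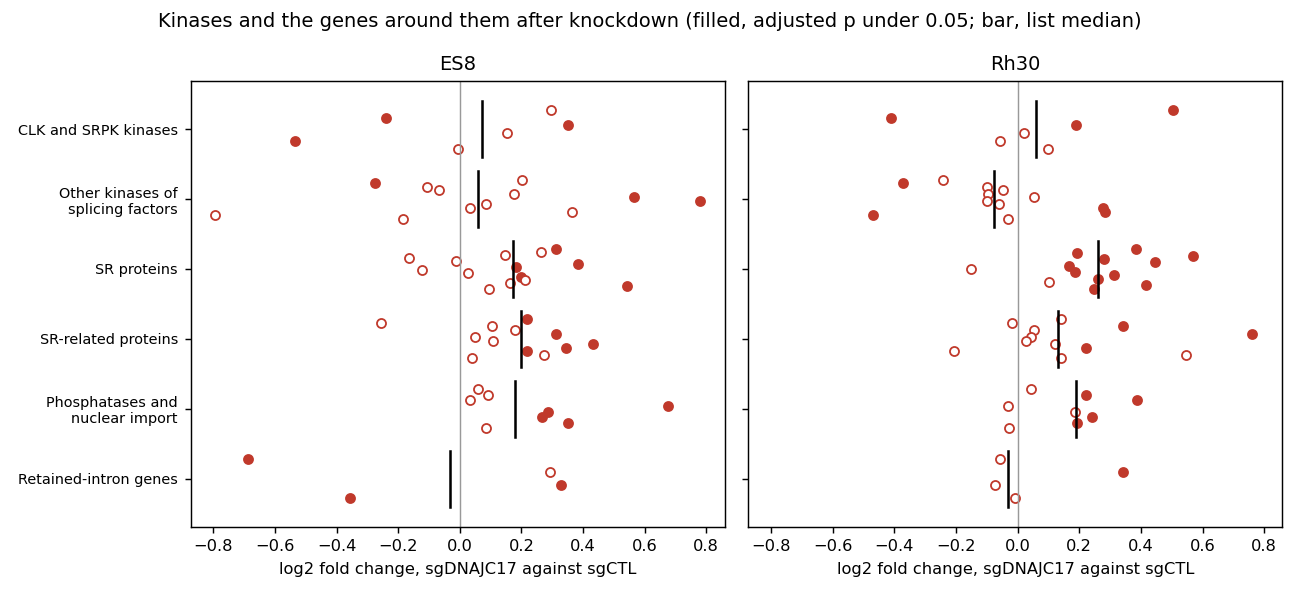
Log2 fold change of sgDNAJC17 against sgCTL for the kinases and 5 lists of related genes, 1 point per gene, ES8 on the left and Rh30 on the right. Filled points have an adjusted p under 0.05 and bars are list medians. The SR protein medians are 0.17 in ES8 and 0.26 in Rh30, while the ES8 values of the kinases lie between -0.53 and 0.35 and their Rh30 values between -0.41 and 0.50.

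Across the 18 libraries, after the mean of each line had been subtracted, the kinases did not vary as a block. These correlations are across libraries that share 6 conditions and are given as descriptions. *CLK3* and *SRPK1* varied in opposite directions, with a Pearson r of -0.859 over 18 libraries, -0.957 over the 9 ES8 libraries and -0.701 over the 9 Rh30 libraries. *CLK1* and *CLK2* also ran opposite, at r = -0.712. The paralogs *CLK1* and *CLK4* had r = 0.507, and the paralogs *SRPK1* and *SRPK2* r = 0.307, with 0.237 in ES8 and 0.674 in Rh30. *CLK2* and *SRPK1* had r = 0.741 in ES8 and -0.275 in Rh30, so the value over 18 libraries, 0.208, joins unlike lines.

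**Figure D5:**
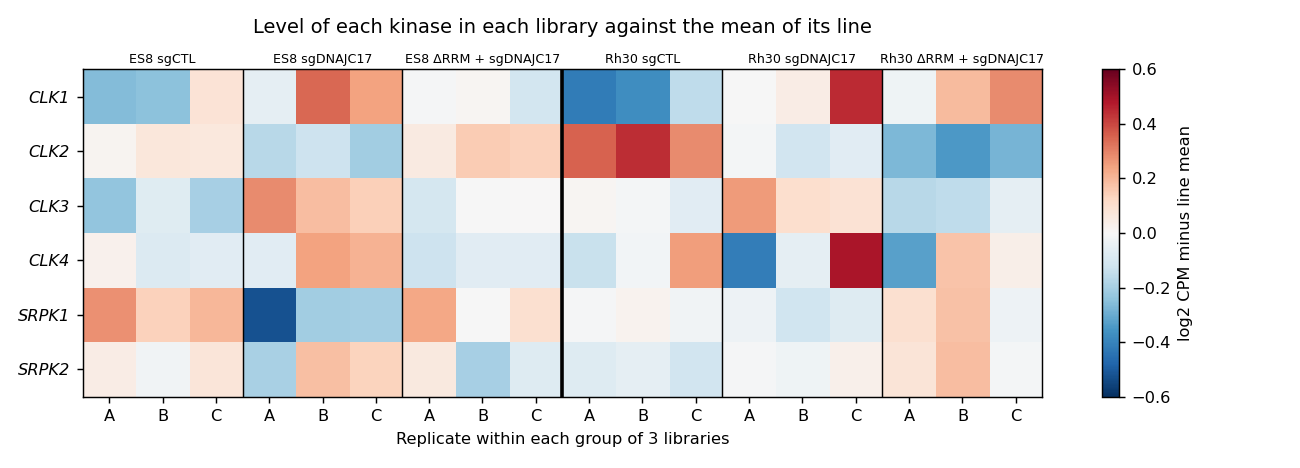
Level of each kinase gene in each of the 18 libraries as log2 CPM minus the mean of its line, with the 6 groups side by side and ES8 on the left. Values run from -0.52 to 0.49. *SRPK1* has its lowest values in the ES8 sgDNAJC17 libraries, *CLK2* has its highest in Rh30 sgCTL, and *CLK3* is above its line mean in all 6 sgDNAJC17 libraries without ΔRRM.

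By the same measure, 12354 other genes with a mean of at least 100 counts were ranked by how closely they followed each kinase. *SRPK1* was followed most closely by *LRPPRC* (Pearson r = 0.978), a mitochondrial RNA-binding protein gene, and *PUS7* (r = 0.97), a pseudouridine synthase gene. *SRPK2* was followed by *GABPA* (r = 0.975), an ETS transcription factor gene, and *MIGA1* (r = 0.959), a gene of mitochondrial fusion. *CLK2* was closest to *ABR* and *ARHGEF40*, both at r = 0.952, and *CLK3* to *TMEM203* (r = 0.941) and *NFKBIB* (r = 0.929). *CLK1* was closest to *ZNF420* (r = 0.908) and *MEAF6* (r = 0.896). *CLK4* had the weakest leading values, *MAP2K6* at r = 0.777 and *H2AC25* at r = 0.748. The same genes led by Spearman's rank correlation for *SRPK2*, but for *CLK2* and *CLK4* neither did, and *ZNF420* ranked 138 for *CLK1*. The central 90% of all genes lay between r = -0.366 and 0.324 for *CLK4* and between -0.807 and 0.844 for *CLK2*, the kinases with the narrowest and widest spread.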

How the data were processed

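Libraries were made from poly-A selected RNA with the NEBNext Ultra RNA kit. The authors deposited 1 table of raw counts per library. The submitters' processing notes name Trimmomatic 0.36, STAR 2.5.2b and featureCounts of Subread 1.5.2 and GRCh38, which the tables' coordinates follow, while the methods name another build. The strand setting is not given in the sources used here. Genes passing filterByExpr were scaled by TMM and tested with edgeR 4.0.16 (R 4.3.3, quasi-likelihood F test, two-sided) on the groups of each of 9 comparisons, with Benjamini-Hochberg correction over all genes tested and calls at an adjusted p under 0.05. The SE of a log2 fold change was derived as its absolute value over the square root of its F statistic. Correlations used log2 CPM with a prior count of 2. Alternatives were DESeq2 1.42.0, its size factors, library totals, no low-count filter, stricter calls and 1 fit over all libraries. Others were a block for replicate letters, single libraries left out, and length trends removed. For the last, lowess (span 0.3) along exonic length was fitted per library to deviations from the mean log2 CPM and entered as an offset. The joint removal of GC and length trends was added after seeing the data. Genes were named by rule: the 6 kinases, *DNAJC17*, genes sharing exonic bases with a kinase, up to 5 genes per list called alike in both lines, and the 2 genes closest to each kinase. Retained-intron genes, *SRSF12*, *TNPO3*, *CDK11A* and markers were named outside it, after their values were seen. The kinases and lists were chosen with earlier results of these data known. On simulated data for the ES8 knockdown over 16974 genes, 100 of 100 genes changed by 1 on the log2 scale and 72 of 100 changed by 0.5 were recovered with 15 false calls. For the interaction over 18060 genes, 98 of 100 and 19 of 100 were recovered with 8 false calls. The simulation gave every gene the same dispersion, had no outlying library and changed only genes with higher counts. Recovery in the real libraries can therefore differ. Libraries of one group differed by 2.62 to 31.8 in chi-square per gene, so none was a copy. No protein or genome sequence of the files' build was used here.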

Additional observations from a re-analysis of the deposited data

Results flagged for a closer look

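The response of *SRPK1* to knockdown differed between the lines in the interaction test, with a difference of 0.50 on the log2 scale (Rh30 minus ES8). The change of ΔRRM cells with sgDNAJC17 against parental sgCTL differed between the lines for *CLK1* by 0.41, for *CLK2* by -0.68 and for *SRPK2* by 0.32, in each case as Rh30 minus ES8. With the trends for GC and length removed, the *CLK1* difference was -0.0041 and the *SRPK2* difference 0.10, neither of them called, whereas *CLK2* and *SRPK1* kept their calls.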

How the results depend on the processing

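Requiring a fold change of at least 2 left 0 kinases called in every comparison that had calls, except 1 between the lines. Adjusting for GC and length called 5 in the ES8 knockdown, with or without the replicate block. Without the block that adjustment also moved the calls over all 17143 genes tested there from 4701 to 7104. Adjusting for length alone called 5 in Rh30 ΔRRM against sgCTL and, with the block, 1 in ES8 ΔRRM against sgCTL. Calls over all genes were not counted for the fits with length alone. For ES8 ΔRRM against knockdown the count of 2 became 0 at an adjusted p under 0.01 and 1 with DESeq2 size factors, no filter on low counts, the block, or length and block. For Rh30 ΔRRM against knockdown it became 1 at 0.01 or with no filter, and for the ΔRRM interaction 1 at 0.01 or with all libraries in 1 fit. Leaving out 1 library gave 2 to 5 calls in the ES8 knockdown, 0 to 2 in ES8 ΔRRM against knockdown and 1 to 2 in Rh30 ΔRRM against knockdown. Calls over all genes were not counted with a library left out.

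Reversed signs were as follows, each pair giving the value without and with the block, and the cause was not tested. In the ES8 knockdown *SRPK2* was 0.0033 in DESeq2, 0.0034 with its size factors, 0.017 in 1 fit, 0.037 and 0.031 adjusted for length, 0.065 and 0.065 for GC and length, and -0.078 to 0.097 with 1 library left out. In the Rh30 knockdown *CLK4* was -0.040 by library totals, -0.10 and -0.11 for GC and length, and -0.27 to 0.23 with 1 library out. In ES8 ΔRRM against sgCTL *CLK4* was 0.0069 and 0.0059 for length, and 0.033 and 0.029 for GC and length. In Rh30 ΔRRM against sgCTL library totals gave -0.11 for *SRPK1* and -0.028 for *SRPK2*. GC and length gave -0.0022 and -0.0032 for *SRPK2* there and 0.27 and 0.27 for *CLK3*, and length alone 0.32 and 0.32 for *CLK3* and 0.14 and 0.15 for *CLK4*, which ran from -0.15 to 0.11 with 1 library out. In Rh30 ΔRRM against knockdown *SRPK2* was -0.066 by library totals and -0.0075 and -0.0082 for GC and length. Length gave 0.022 and 0.032 for *CLK1* and 0.042 and 0.068 for *CLK4* there, with ranges of -0.11 to 0.15 and -0.28 to 0.22 with 1 library out. Between the lines *CLK1* was -0.063 by library totals. In the knockdown interaction *SRPK2* was -0.018 and -0.018 for GC and length, and *CLK4* ran from -0.40 to 0.11 with 1 library out. In the ΔRRM interaction *CLK4* was -0.0074 in DESeq2, -0.0075 with its size factors, -0.19 by library totals, -0.026 in 1 fit, -0.33 and -0.32 for GC and length, and -0.10 to 0.17 with 1 library out. *CLK3* was 0.040 and 0.050 for length there, and *CLK1* -0.0041 and -0.0040 for GC and length.

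The labels do not say that the replicate letters pair cultures. Over 19360 genes the correlation of same-lettered deviations was -0.179 to 0.0918. Over 7113 genes with a mean of at least 1000 counts the Rh30 knockdown letters correlated at 0.532, 0.283 and 0.261, each library best with its own letter, a hint from the data. The block moved the calls over all genes in that comparison from 4974 to 7235 and changed no kinase's call there. With the letter as a block *CLK2* in the ES8 knockdown had an adjusted p of 0.0591. The planned coding length from protein records was not run, and annotated coding exons, chosen after seeing the data, took its place. The lowest counts of a kinase were those of *CLK4* in Rh30, 92 to 171 per library.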
